A study of Mus musculus with 21 samples.

Results

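The right lung of mice 14 days after removal of the left lung was compared with the right lung of mice 56 days after sham surgery. The comparison takes 6 of the 21 arrays of the series: the 3 labelled day 14 after left pneumonectomy and the 3 labelled day 56 after sham surgery, chosen by their labels and set against each other region by region. All 21 arrays came from male C57BL/6 mice with no engineered allele named in the labels, and each hybridised biotin-labelled total RNA. In each condition the medial lobe of the right lung, its cardiac lobe and the entire right lung were hybridised to 1 array each, so both groups have n = 3 arrays. The other 5 conditions were day 0 and days 3, 7, 28 and 56 after left pneumonectomy. The labels give neither the age of the mice nor whether animals were pooled or contributed more than 1 region. The p-values therefore measure the scatter between arrays that is left once condition and region are fitted, pooled over all 21 arrays. That scatter may be partly technical. No sham array at day 14 was analysed here, so the operation, the days since surgery and the age that goes with them cannot be told apart.

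After left pneumonectomy the remaining right lobes enlarge, a response called compensatory lung growth. Cells divide in the first week, and the expanded airspaces need new septa, capillaries, collagen and elastic fibres, laid down by fibroblasts and covered on the outside by the mesothelium. Growth signals known in the lung include insulin-like growth factor 1, made by macrophages and mesenchyme, and fibroblast growth factor 10, a mesenchymal ligand for the epithelium. The circadian clock is also strong in the lung: CLOCK and ARNTL bind the E-box, whose letters are CACGTG, and drive the Per, Cry and Nr1d genes that in turn repress them. Samples of different clock phase differ in many clock-driven genes, and these 2 groups were set against each other because their clock genes stood at similar levels.

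Of the called genes described below, Klf15 had E-box letters in its upstream window, and Ciart is shown beside it as a core clock gene that was not called. Both are the 250 bases before the RefSeq transcription start on GRCm38.p6, read 5′ to 3′ on the gene's strand, with E-boxes in capitals. The Klf15 window is chr6:90462326-90462575 on the plus strand and the Ciart window is chr3:95882229-95882478 on the minus strand.
Klf15: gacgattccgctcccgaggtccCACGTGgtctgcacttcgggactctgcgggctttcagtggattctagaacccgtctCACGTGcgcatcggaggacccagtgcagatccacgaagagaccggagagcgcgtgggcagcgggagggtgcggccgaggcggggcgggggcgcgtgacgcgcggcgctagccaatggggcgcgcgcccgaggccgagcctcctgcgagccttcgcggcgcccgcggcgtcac
Ciart: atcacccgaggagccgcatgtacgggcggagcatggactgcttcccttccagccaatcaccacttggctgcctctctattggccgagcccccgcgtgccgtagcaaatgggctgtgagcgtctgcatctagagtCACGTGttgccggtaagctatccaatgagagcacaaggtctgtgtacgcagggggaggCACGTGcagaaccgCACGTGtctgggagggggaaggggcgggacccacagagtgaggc
The Klf15 matches begin 228 and 172 bases before the start, and those of Ciart 116, 58 and 44 bases before it. The letters read the same on both strands, and 6.02% of 32851 mouse windows of this length hold at least 1 match and 0.429% hold 2 or more. A window was found for 8 of the 13 called genes, and 1 of those 8 held a match. Among the core clock genes, 11 had a window and 4 held a match in it (Per1, Cry1, Bhlhe41 and Ciart). A match is a description of the letters and shows no binding.

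At day 14 Prg4, Timp1, Mmp2, Igf1 and 6 other genes were higher in the pneumonectomised lung than in the sham lung, by 1.42-fold to 7.08-fold, and Fgf10, Klf15 and Kcnj3 were lower. A gene was called where limma's test, with Benjamini-Hochberg adjustment over all 19938 genes, gave an adjusted p under 0.05. By that rule 13 genes were called (0.0652% of those tested), of which 10 were higher (0.0502%) and 3 lower (0.015%). In all 13 the 3 values of one group lay wholly above the 3 of the other, and the sign was the same in each region. Non-overlap alone is common: 6.66% of all genes had it, 664 in each direction. At an unadjusted p under 0.05 there were 1081 genes, 5.42% of those tested, and the median difference over all genes was -0.0003 on the log2 scale.

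The number of calls rested on single arrays. With the cardiac lobe array of day 14, that of sham, or the whole-lung array of day 14 left out, limma called 0 genes, with 778, 705 and 946 at an unadjusted p under 0.05. Without the day 14 medial lobe 1 was called higher and 1 lower, without the sham medial lobe 3 and 1, and without the sham whole lung 5 and 14. Each of the 13 genes kept its sign in every setting in which it was tested. The settings reuse the arrays in which these genes had the same sign in each region, so a kept sign adds no separate support.

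**Figure D1:**
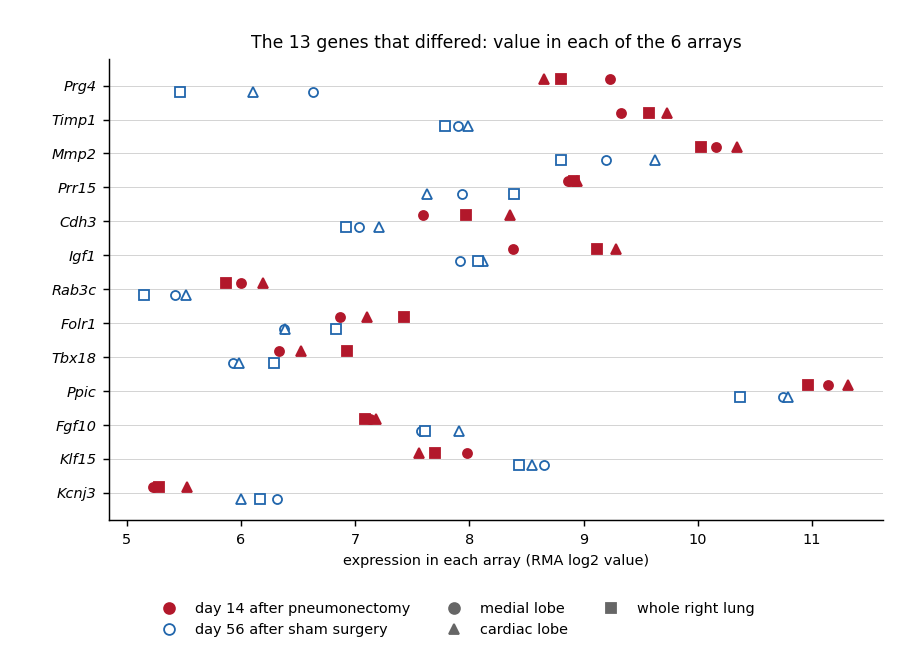
RMA log2 value of the 13 called genes in each of the 6 arrays (x axis), with day 14 after pneumonectomy in filled red and day 56 after sham in open blue, and the marker giving the region. In every row the 3 red and the 3 blue markers are apart; the widest gap is that of Prg4, with day 14 values from 8.65 to 9.23 and sham values from 5.47 to 6.63.

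Values below are log2 expression in the order medial lobe, cardiac lobe, whole right lung, and differences are day 14 minus sham on the log2 scale with the standard error (SE) of the fit. Prg4, which encodes lubricin, a lubricating proteoglycan of joint and serosal surfaces, read 9.23, 8.65 and 8.80 at day 14 and 6.63, 6.11 and 5.47 in sham. All 3 day 14 arrays were far above all 3 sham arrays. The difference was 2.82 ± 0.44, or 7.08-fold (adjusted p = 0.0274).

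Timp1, a secreted inhibitor of matrix metalloproteinases, read 9.33, 9.73 and 9.57 at day 14 against 7.90, 7.99 and 7.78 in sham. The values within each group were close, and the groups were well apart. The difference of 1.65 ± 0.23 was 3.14-fold (adjusted p = 0.0139). Mmp2, a gelatinase that cuts type IV and denatured collagens, read 10.16, 10.34 and 10.02 at day 14 and 9.20, 9.62 and 8.80 in sham. Its regions followed the same order in both groups, with the cardiac lobe highest and the whole lung lowest. It was 1.96-fold higher (0.97 ± 0.16, adjusted p = 0.032).

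Igf1 read 8.39, 9.28 and 9.12 at day 14 and 7.92, 8.12 and 8.08 in sham. The medial lobe of day 14 stood nearest to the sham range, with a difference of 0.47 there against 1.16 in the cardiac lobe and 1.04 in the whole lung. Over the 3 regions Igf1 was 1.85-fold higher (0.89 ± 0.14, adjusted p = 0.0274). Cdh3, which encodes the adhesion molecule P-cadherin, had its regional differences in the same order, smallest in the medial lobe and largest in the cardiac lobe. It read 7.59, 8.36 and 7.97 at day 14 against 7.04, 7.21 and 6.92 in sham, 1.89-fold higher (adjusted p = 0.0428).

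Prr15 was nearly constant at day 14, at 8.86, 8.94 and 8.91, and varied in sham, at 7.94, 7.63 and 8.39. It was 1.89-fold higher (0.92 ± 0.13, adjusted p = 0.0185). Folr1, the folate receptor alpha, read 6.87, 7.10 and 7.43 at day 14 and 6.37, 6.39 and 6.83 in sham. Its lowest day 14 value lay just above its highest sham value, and the 1.52-fold difference was alike in each region (0.60 ± 0.095, adjusted p = 0.0274).

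Rab3c, a small GTPase of secretory vesicles, had the smallest adjusted p of all genes (0.0047). It read 6.00, 6.20 and 5.87 at day 14 against 5.42, 5.52 and 5.16 in sham, a 1.58-fold difference (0.66 ± 0.076). Rab3c is dim: its mean over all arrays lay under 6, the level below which an alternative fit left genes out. Tbx18, a T-box transcription factor of developing mesenchyme, read 6.34, 6.53 and 6.93 at day 14 against 5.93, 5.99 and 6.29 in sham. These are also low values on this array, and the groups lay close together. Tbx18 was 1.44-fold higher (adjusted p = 0.0215). Ppic, the prolyl isomerase cyclophilin C, was 1.42-fold higher at high levels, 11.14, 11.31 and 10.96 against 10.75, 10.79 and 10.37 (adjusted p = 0.0409).

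The lower genes at day 14 were a transcription factor, a growth factor and a channel. Klf15, a transcription factor induced by glucocorticoids that controls amino acid and lipid metabolism, read 7.98, 7.56 and 7.70 at day 14 and 8.66, 8.55 and 8.44 in sham. Sham was 1.74-fold higher (-0.80 ± 0.10, adjusted p = 0.0099). Fgf10 read 7.13, 7.18 and 7.09 at day 14, almost the same in each region, and 7.57, 7.91 and 7.61 in sham. Sham was 1.48-fold higher (-0.57 ± 0.091, adjusted p = 0.0274). Kcnj3, a potassium channel subunit of atrial heart muscle and neurons, read 5.23, 5.53 and 5.28 at day 14 and 6.31, 6.00 and 6.17 in sham, where it was 1.76-fold higher (-0.81 ± 0.13, adjusted p = 0.032). Like Rab3c, Kcnj3 had a mean under 6 over all arrays.

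Heart muscle genes were also below their sham level on average, without passing the test. Mouse pulmonary veins carry a sleeve of heart muscle, and all 14 of 14 measured members of the cardiac muscle list were below 0, with a median of -0.53, though 0 of them were called by limma and 8 had an unadjusted p under 0.05. The mean of the list ran from 7.06 to 7.52 in the day 14 arrays and from 7.72 to 8.03 in the sham arrays, without overlap. Sham also stood above day 0 in all 14 genes, with a median of 0.30. Day 14 minus day 0 had a median of -0.19, with 4 of 14 above 0, and neither comparison called any of them. Myh6, the atrial and adult ventricular myosin heavy chain, read 6.65, 7.17 and 6.67 at day 14 and 8.02, 8.19 and 8.15 in sham (-1.29 ± 0.29, adjusted p = 0.22). Ryr2, the calcium release channel of heart muscle, differed by -0.38 (adjusted p = 0.45). The part of these cells in the Kcnj3 result was not tested; in whole-tissue RNA, fewer cells of a type and less RNA per cell cannot be told apart.

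**Figure D2:**
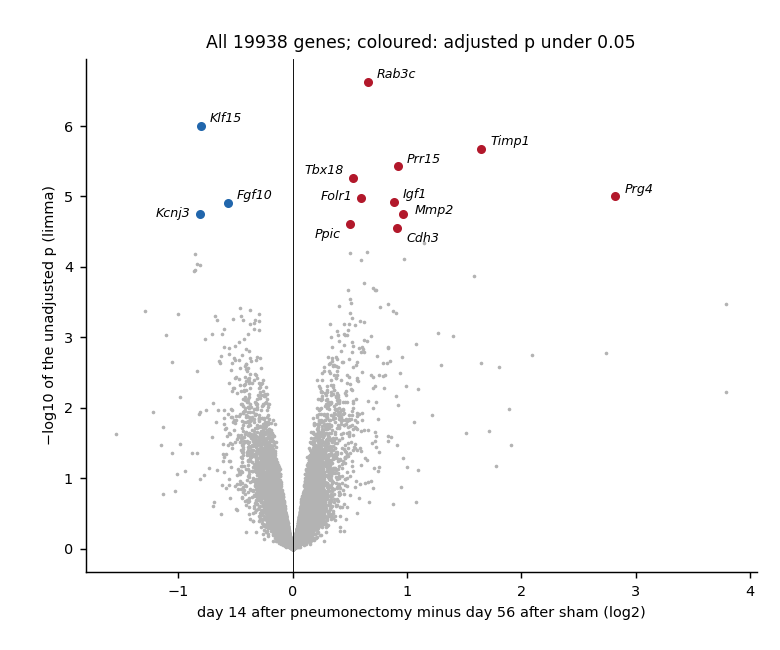
Difference of day 14 after pneumonectomy minus day 56 after sham (x axis, log2) against the negative log10 of the unadjusted limma p (y axis) for all 19938 genes. The 10 called higher are red and the 3 called lower blue; Prg4 and Timp1 are the 2 called genes with a difference over 1.

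Large differences and called differences were mostly different genes. A difference of 1 or more on the log2 scale was found for 36 genes, 24 higher and 12 lower, and 2 of them, Prg4 and Timp1, were called. Several of the others, named here after their values were seen, were high in the cardiac lobe and whole lung of day 14 and near the sham level in its medial lobe. Rnase2a, an eosinophil-associated ribonuclease, read 4.91, 11.06 and 10.25 at day 14 against 5.01, 4.94 and 4.91 in sham. Mmp12, the macrophage elastase, read 6.80, 10.89 and 9.58 against 6.32, 6.65 and 6.08 (adjusted p = 0.32). Arg1, an arginine-degrading enzyme of alternatively activated macrophages, read 5.78, 8.16 and 8.99 against 5.67, 5.84 and 5.68 (adjusted p = 0.85). All 3 genes were thus high in 2 of the 3 day 14 arrays and near sham in the third.

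Genes of alternatively activated macrophages had the highest median of the lists, 0.91, with 9 of 11 above 0 and 0 called by limma (6 higher and 1 lower at an unadjusted p under 0.05). Retnla, a secreted resistin-like protein, was higher in each region, 11.25, 11.86 and 12.02 against 10.21, 10.02 and 10.15 (1.58 ± 0.32, adjusted p = 0.11). Chil3, a chitinase-like protein of macrophages, differed by 0.91 ± 0.20 (adjusted p = 0.22). By region the median of the list was 0.11 in the medial lobe, 1.20 in the cardiac lobe and 0.92 in the whole lung. Relative to day 0 the median of the list was 0.56 at day 14 and -0.34 in sham. Monocyte and interstitial macrophage genes had 10 of 12 above 0 (median 0.31, 0 called by limma and 4 at an unadjusted p under 0.05), led by Ms4a7 at 0.88 and Mrc1, the mannose receptor, at 0.47. Alveolar macrophage genes had 8 of 11 above 0 with the same median, 0 called and 5 unadjusted; Siglecf, a lectin of alveolar macrophages and eosinophils, differed by 0.50 (adjusted p = 0.19).

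In mucous cell genes the difference was again smallest in the medial lobe. All 11 measured members were above 0 with a median of 0.68, yet 0 were called by limma and 4 had an unadjusted p under 0.05, and the regional medians were 0.02, 0.76 and 0.83. Clca1, a secreted product of goblet cells, read 7.00, 9.86 and 11.37 at day 14 and 5.43, 5.46 and 5.96 in sham (3.79 ± 0.83, adjusted p = 0.20). Gp2, a membrane glycoprotein, differed by 1.89 (adjusted p = 0.60). Against day 0 the mean difference of Clca1 was 0.96 (adjusted p = 0.74), and sham minus day 0 was -2.83 (adjusted p = 0.21). Neither of these passed the test.

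Of 45 gene lists, 3 held a called member, and the extracellular matrix gave 2 of the 13 called genes. The list of matrix metalloproteinases and their TIMP inhibitors had 12 of 15 members above 0, a median of 0.20, and 2 called higher (Timp1 and Mmp2), against 0.0502% of all genes. Within the TIMP family, the differences of Timp2, Timp3 and Timp4 were -0.04, -0.11 and 0.20, and none was called. Of the metalloproteinases, Mmp19 differed by 1.08 (adjusted p = 0.29) and Mmp14, which activates the precursor of Mmp2, by 0.58 (adjusted p = 0.63). Both had non-overlapping groups.

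Elastic fibre genes had 10 of 13 above 0 with a median of 0.16, and 0 called by limma (4 at an unadjusted p under 0.05). Eln, elastin itself, read 10.03, 10.29 and 10.50 at day 14 and 8.55, 8.68 and 9.38 in sham, 1.40 ± 0.35 higher without overlap (adjusted p = 0.26). Mfap5, a microfibril glycoprotein, read 9.66, 10.05 and 9.78 against 8.92, 9.12 and 8.94 (0.83 ± 0.18, adjusted p = 0.20). Both were called against day 0, Eln by 1.97 (adjusted p = 0.0085) and Mfap5 by 0.91 (adjusted p = 0.02). The arrays of day 14 are shared by these comparisons.

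Enzymes that hydroxylate or cross-link collagen had 9 of 12 above 0 (median 0.12), 0 called by limma, and 3 higher and 1 lower at an unadjusted p under 0.05. P4ha3, a collagen prolyl hydroxylase subunit, came closest to the threshold of all uncalled genes: it read 6.63, 7.51 and 6.38 against 5.72, 5.75 and 5.59 (1.15 ± 0.21, adjusted p = 0.065). Loxl1, a lysyl oxidase that cross-links elastin, differed by 0.51 ± 0.11 (adjusted p = 0.20). Fibrillar collagen and assembly genes had 12 of 16 above 0 (median 0.13, 0 called by limma, 2 unadjusted), with Fn1, fibronectin, at 0.79 and Sparc, a collagen-binding matrix protein, at 0.21. Tnc, tenascin C, was 1.27 higher (adjusted p = 0.26), while its matricellular list had 4 of 11 above 0. Basement membrane genes had 10 of 17 above 0 and a median of 0.04. For comparison, 49.9% of all genes were above 0.

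Mesothelial genes had 11 of 12 above 0 with a median of 0.21, and 1 called higher, Prg4, against 0.0502% of all genes. Msln, the surface protein mesothelin, read 11.34, 11.20 and 11.15 at day 14 against 10.54, 10.37 and 10.66 in sham (0.71 ± 0.15, adjusted p = 0.15). Upk1b differed by 0.39 (adjusted p = 0.26). The defining marker Wt1 differed by 0.03 and Upk3b by 0.08, with overlapping groups. The mean of the list ran from 9.86 to 10.12 at day 14 and from 9.42 to 9.62 in sham, while Prg4 differed by far more than the list's median. The part of mesothelial cells in the Prg4 result was not tested.

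**Figure D3:**
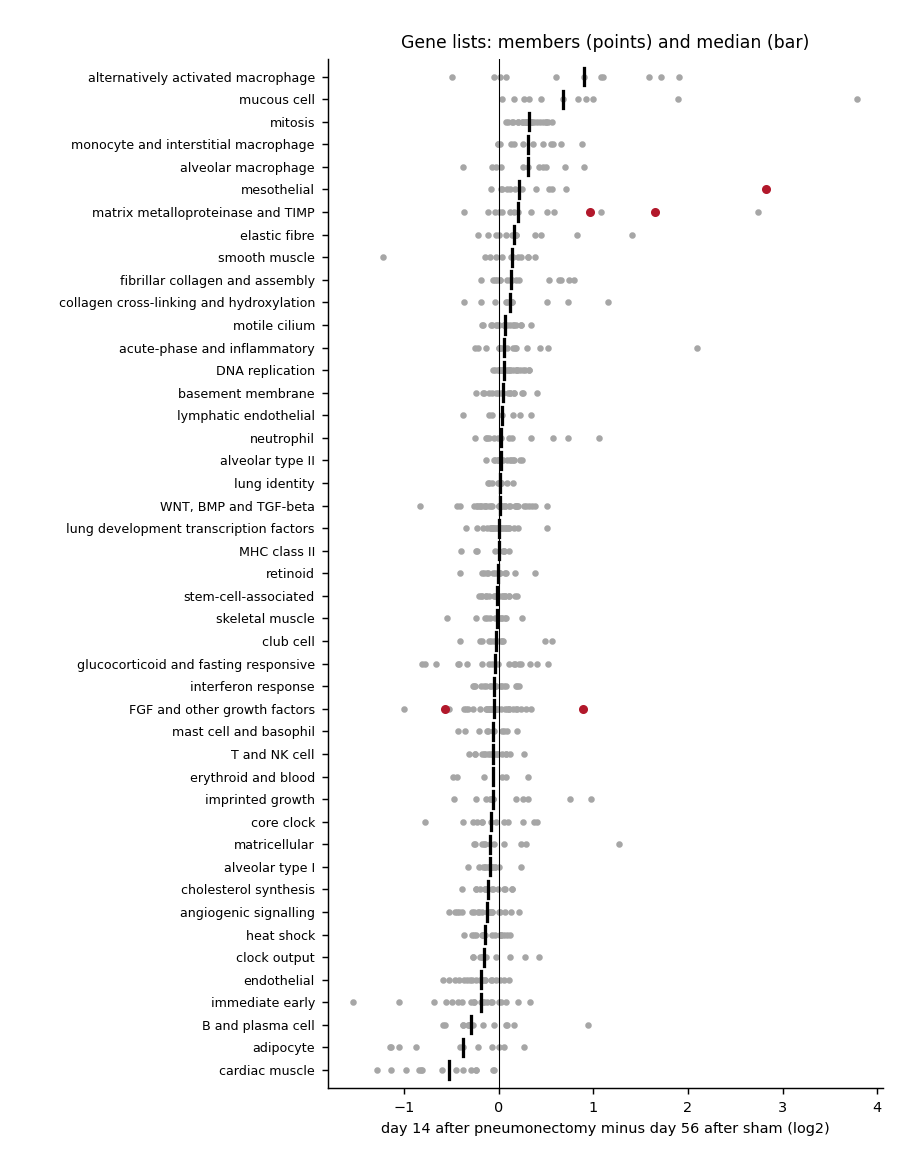
Differences of day 14 minus sham (x axis, log2) of the members of 45 gene lists (points), with called members in red and the median of each list as a bar, sorted by median. Red points stand in the mesothelial, metalloproteinase and growth factor lists; the alternatively activated macrophage and mucous cell lists are at the top and the cardiac muscle list is at the bottom.

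Among 32 growth factors and receptors, 12 were above 0, the median was -0.05, and 2 were called, against 0.0652% of all genes in either direction: Igf1 higher and Fgf10 lower. Their receptors differed little, Igf1r by -0.10 and Fgfr2 by -0.11, with overlapping groups and neither called. Igfbp3, which binds and carries IGF1, was lower by the most in the list, 7.86, 7.90 and 8.37 at day 14 against 8.81, 9.33 and 8.99 in sham, without overlap (-1.0 ± 0.23, adjusted p = 0.22). Day 14 minus day 0 was -0.29 for Igfbp3 (adjusted p = 0.71) and sham minus day 0 was 0.71 (adjusted p = 0.26), neither called by limma. Of the imprinted growth genes 5 of 13 were above 0 and 0 were called by limma (3 higher and 1 lower at an unadjusted p under 0.05). Mest, a mesodermal imprinted gene, read 7.90, 7.88 and 6.96 against 6.71, 6.73 and 6.38 (0.97 ± 0.18, adjusted p = 0.083), and Igf2 was below sham by 0.47 without passing the test (a difference of -0.47, adjusted p = 0.28). In the list of WNT, BMP and TGF-beta genes 22 of 37 were above 0 and 0 were called by limma (5 higher and 4 lower unadjusted). Wnt2b, a WNT ligand of lung mesenchyme, came nearest at -0.84 ± 0.16 (adjusted p = 0.09), and Tgfb3 differed by 0.38 (adjusted p = 0.38).

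Cell division genes were far below their day 7 level at day 14 and stood a little above sham. All 29 measured mitosis genes were above 0 with a median of 0.32, but 0 were called by limma and 3 had an unadjusted p under 0.05. Plk1, a mitotic kinase, read 7.35, 7.24 and 7.24 at day 14 and 6.64, 7.07 and 6.44 in sham (0.56 ± 0.20, adjusted p = 0.65), and Bub1b, a spindle checkpoint kinase, differed by 0.43 (adjusted p = 0.80). The mean of the list was 6.30 to 6.66 at day 14 and 5.96 to 6.40 in sham, so the groups overlapped. At day 7 it was 7.34 to 7.63. All 29 genes were higher at day 7 than at day 14, with a median of 0.96. Of these, 15 were called, where 0.727% of all genes were called in either direction. DNA replication genes had 24 of 27 above 0 but a median of 0.06, with 0 called by limma and 0 at an unadjusted p under 0.05. Tyms, which makes thymidylate, differed by 0.32 (adjusted p = 0.95) and Gins1 by 0.32. Relative to day 0 the median of the mitosis list was 0.14 at day 14 and -0.13 in sham, with 26 and 1 of 29 above 0. That of the DNA replication list was -0.08 at day 14 and -0.19 in sham, with 8 and 2 of 27 above 0. Neither comparison with day 0 called any of these genes.

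Lung cell type genes differed little. The lung identity list, which checks the tissue, had a mean from 11.89 to 12.27 in the 6 arrays and a median difference of 0.01. Alveolar type II genes had 12 of 17 above 0 with a median of 0.02, and alveolar type I genes had 2 of 14 above 0 with a median of -0.09. Muc1, an epithelial mucin, differed by 0.24 and Hopx, a factor of type I cells, by -0.17. Lung development transcription factors were split, 15 of 29 above 0, with a median of 0.01; Osr1, an odd-skipped factor of mesenchyme, differed by 0.51 (adjusted p = 0.66). In these 4 lists 0 genes were called by limma, and the 95% intervals of all their members lay within 1 log2 unit of 0. At an unadjusted p under 0.05, 2 genes of these lists were higher, Muc1 and Osr1.

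Endothelial genes tended to lie below 0: 3 of 20 were above 0 and the median was -0.19, with 0 called by limma and 6 lower at an unadjusted p under 0.05. Tek, the angiopoietin receptor, read 10.68, 10.52 and 10.13 at day 14 and 10.998, 11.20 and 10.72 in sham (-0.53 ± 0.18, adjusted p = 0.60), and Flt1, a receptor of VEGF, differed by -0.47 (adjusted p = 0.64). The regional medians were -0.02 in the medial lobe, -0.44 in the cardiac lobe and -0.22 in the whole lung. Relative to day 0 the median of the endothelial list was 0.02 at day 14, with 11 of 20 above 0. In sham it was 0.25 relative to day 0, with 17 of 20 above 0, and neither comparison called any of them. B and plasma cell genes had 4 of 14 above 0 (median -0.29, 0 called by limma, 3 lower unadjusted), led by Cd79a at -0.57 and Ms4a1, which encodes CD20, at -0.59. T and NK cell genes had 5 of 18 above 0 with a median of -0.06, 0 called by limma and 0 at an unadjusted p under 0.05. Against day 0 both lymphocyte lists lay lower in each group: 7 T and NK genes and 4 B and plasma cell genes were called lower at day 14, and 3 and 0 in sham, where 1.2% and 0.381% of all genes were called in either direction.

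Immediate early genes respond quickly to stimulation of a cell. Their median was -0.19 with 4 of 21 above 0, 0 called by limma and 7 lower at an unadjusted p under 0.05. By region the median was -0.25 in the medial lobe, -0.55 in the cardiac lobe and 0.32 in the whole lung. Above 0 in these regions were 3, 0 and 15 of the 21 genes, so the sign of the list turned in the whole lung. Fosb, named like Atf3 after its values were seen, read 7.38, 6.81 and 7.17 at day 14 against 9.49, 9.92 and 6.59 in sham (adjusted p = 0.77). Atf3 read 8.48, 8.87 and 8.62 against 10.47, 10.67 and 7.996 (adjusted p = 0.91). For these 2 genes the lobes and the whole lung of sham stood on opposite sides of day 14. Jun differed by -0.43 (adjusted p = 0.61) and Ier3 by -0.39.

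Core clock genes were alike in the 2 groups, as the choice of the comparison required, and their values are given as a description. Of 13 measured, 0 were called by limma, 2 were higher and 1 lower at an unadjusted p under 0.05, and the median difference was -0.08. The mean of the list was 8.15 to 8.22 in the day 14 arrays and 7.94 to 8.44 in sham, against 8.83 to 8.97 at day 0. Arntl, the activator, read 8.23, 8.11 and 7.72 at day 14 and 8.35, 8.40 and 8.01 in sham, against a range of 6.11 to 6.21 at day 0. The difference between the groups was -0.23 (95% interval -0.52 to 0.06), and each group was above day 0, by 1.87 and 2.10.

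Per2, Per3, Cry2, Nr1d1, Nr1d2, Bhlhe41 and Ciart, which encode repressors of the loop, were called lower than day 0 in each group. Per2 read 7.08, 6.83 and 6.96 at day 14 and 7.41, 7.35 and 6.93 in sham, against 8.86 to 9.11 at day 0. Per3 differed by 0.10 (95% interval -0.30 to 0.49) and Ciart by -0.03 (-0.58 to 0.51). Nr1d1, the repressor REV-ERB alpha, read 10.68, 10.42 and 10.51 at day 14 against 10.17, 10.21 and 10.01, a difference of 0.41 (0.10 to 0.72, adjusted p = 0.65). Nr1d2 differed by 0.26 (-0.04 to 0.55) and Bhlhe41 by 0.37 (0.04 to 0.71). Cry1 was lower, by -0.38 (-0.62 to -0.14, adjusted p = 0.42). The intervals leave room for small differences of single clock genes between the groups.

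The remaining clock genes were Clock at -0.08, Cry2 at -0.17, Rora at -0.18, Bhlhe40 at 0.05 and Per1 at -0.77. Per1 was uneven within sham, at 9.69, 9.82 and 7.78 against 8.13, 8.04 and 8.79 at day 14, so its interval ran from -1.68 to 0.13. Its 2 sham lobes were above and its whole sham lung below every day 14 array, as with Fosb and Atf3. Among 10 clock output genes 0 were called by limma and 0 had an unadjusted p under 0.05 (median -0.16); Dbp, a factor driven directly by the clock, differed by 0.43 (-0.03 to 0.89) and Usp2, a ubiquitin protease, by -0.27.

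**Figure D4:**
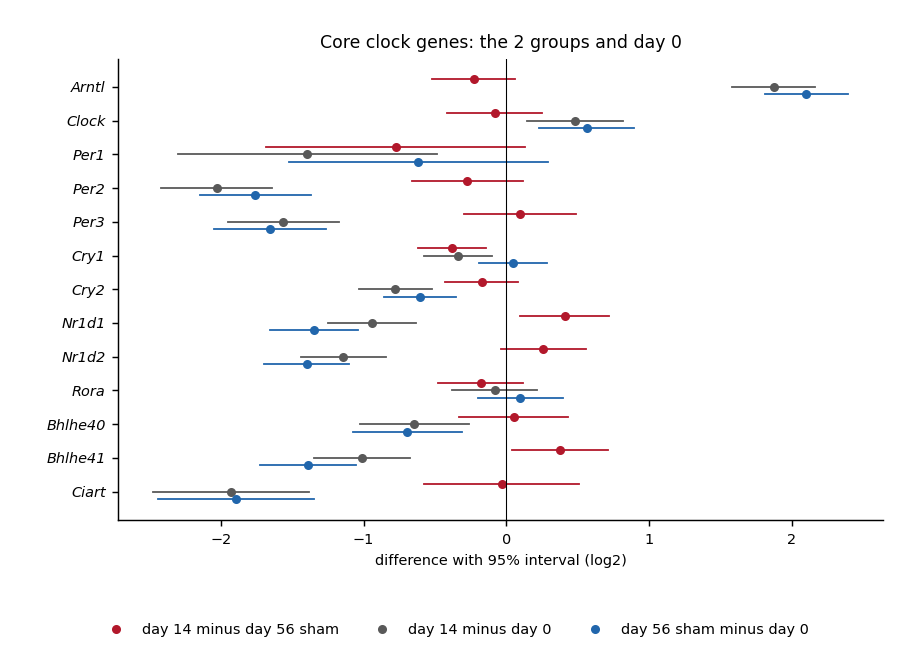
Differences (log2, x axis) with 95% intervals of 13 core clock genes: day 14 after pneumonectomy minus day 56 sham in red, day 14 minus day 0 in grey and sham minus day 0 in blue. Grey and blue bars lie together and far from 0 for Arntl, Per2, Per3, Nr1d1 and Ciart, while the red bars of these genes lie nearer to 0. The red intervals of Nr1d1, Bhlhe41 and Cry1 leave out 0, and that of Per1 reaches furthest below it.

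In other comparisons that share arrays with this one, clock genes were among the called genes. Against day 0, 240 genes were called (1.2%), among them 8 of the 13 core clock genes, 1 higher and 7 lower, with a median of -0.94. Against day 56 after pneumonectomy 108 genes were called (0.542%), with 1 clock gene higher and 6 lower. Sham itself differed from day 0 in 76 genes (0.381%), again with 1 clock gene higher and 7 lower. These comparisons share arrays, so their counts are not independent of each other.

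The 10 genes higher than sham were also above day 0, and 8 were called there; the exceptions were Tbx18 at 0.33 (adjusted p = 0.055) and Ppic at 0.19 (adjusted p = 0.41). Prg4 was 3.04 above day 0, Timp1 1.77 and Igf1 1.10. For those 10 genes sham and day 0 differed by between -0.31 and 0.27, with none called. Set against day 56 after pneumonectomy all 10 were above 0 and 4 were called: Mmp2 at 0.95, Igf1 at 0.99, Rab3c at 0.58 and Tbx18 at 0.45. Prg4 was 1.69 above that group (adjusted p = 0.12), whose own values ran from 6.38 to 8.57. Both comparisons reuse the day 14 arrays in which the 10 genes were chosen as high. Their direction there was partly set by that choice and adds no separate support.

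The 10 genes did not share a single course. Prg4 and Timp1 were highest at day 3, where their means were 10.53 and 11.29 (SD 0.024 and 0.44, n = 3), and had come down to 8.89 and 9.54 by day 14. Timp1 was still higher at day 7 than at day 14, by 1.22 (adjusted p = 0.0227). Igf1 had day 3, 7 and 14 means of 9.20, 9.08 and 8.93, within the spread of the arrays. Mmp2 instead had its highest mean at day 14, 10.18, against 9.54 at day 3 and 9.96 at day 7, and the step from day 7 to day 14 was not called.

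Rab3c was the gene with day 14 apart from its neighbours. Its values at day 14 were 5.87 to 6.20, against 4.87 to 5.46 at day 3, 5.41 to 5.72 at day 7 and 4.999 to 5.35 at day 28. It was lower at day 7 by 0.43 (a difference of -0.43, adjusted p = 0.0185) and at day 28 (-0.79, adjusted p = 0.00019). At day 28 all 10 genes were below their day 14 level, with Rab3c called, where 0.145% of all genes were called. Prg4 was lower there by 2.28 without passing the test (-2.28, adjusted p = 0.058). The day 7 and day 28 comparisons reuse the day 14 arrays in which these genes were chosen as high. Lower values at the other days were partly set by that choice.

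**Figure D5:**
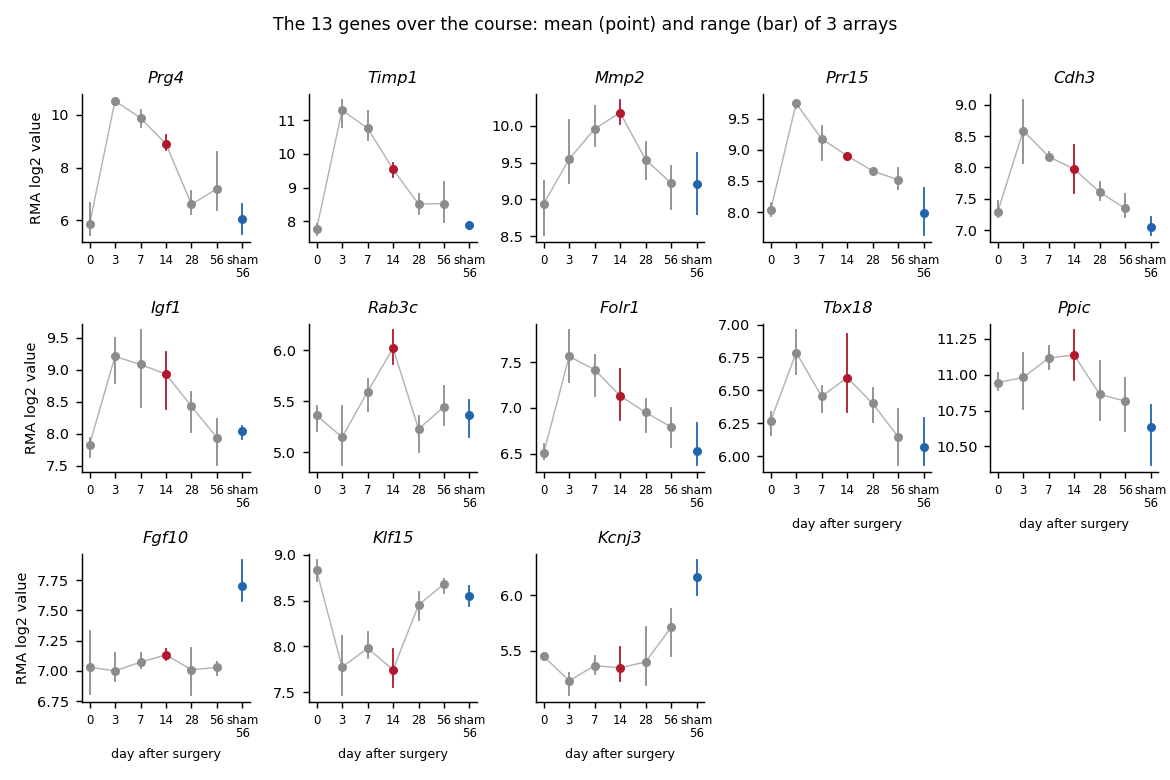
Mean (point) and range (bar) of the RMA log2 values of 3 arrays for the 13 called genes at day 0 and days 3, 7, 14, 28 and 56 after pneumonectomy, with sham at day 56 on the right; the x axis is in order and not to scale, and each panel has its own y axis. Day 14 is red and sham blue. Rab3c is highest at day 14, Prg4 and Timp1 at day 3, and for Fgf10 and Kcnj3 the sham group stands above the other 6 groups.

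The 3 lower genes split by the same comparison. Klf15 was below day 0 as well, by 1.08 (a difference of -1.08, adjusted p = 9.3e-05), below day 56 after pneumonectomy (-0.94, adjusted p = 0.000375), and higher again at day 28 than at day 14 (0.71, adjusted p = 0.0078). Its mean was 7.77 at day 3, 7.98 at day 7 and 7.75 at day 14, against 8.83 at day 0 and 8.55 in sham. Fgf10 and Kcnj3 did not follow this. Day 14 minus day 0 was 0.10 for Fgf10 (adjusted p = 0.74) and -0.10 for Kcnj3 (adjusted p = 0.83), while sham was above day 0 by 0.67 (adjusted p = 0.0021) and 0.71 (adjusted p = 0.0286). For both genes sham stood apart from day 0 as well as from day 14. The 3 genes were chosen in the same day 14 and sham arrays, so these comparisons are not independent of that choice.

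Correlations between the 6 arrays ran from 0.986 to 0.997. The whole-lung arrays stood apart from the lobes: the mean of 63 small nuclear and nucleolar RNA genes was 8.92 at day 14 and 8.77 in sham, against 7.00 to 7.33 in the 4 lobe arrays. Without the region term in the fit 0 genes were called by limma, with 595 at an unadjusted p under 0.05. In arrays outside this comparison the same mean was 8.15 in the day 7 cardiac lobe and 9.71 in the day 56 pneumonectomy whole lung, each the highest of its kind of region. With these 2 arrays left out of the fit the differences were the same and 60 genes were called, 41 higher and 19 lower, including all 13. Clca1, Retnla, Eln, P4ha3, Mest, Msln, Loxl1, Mmp14 and Lcn2 were then among the higher genes, with Nr1d1 as the 1 core clock gene, and Wnt2b, Igfbp3 and Igf2 among the lower. Some array is always the highest of its region, so that rank alone gives no reason to prefer this fit.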

How the data were processed

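RNA of 21 mouse lung samples was measured on Affymetrix arrays with 1 sample each. The deposited table gives a log2 value for each probe set in each array. The authors made these values with RMA, which corrects background, scales arrays to each other and summarises the probes of a set, per the submitters' processing notes. The RMA settings were not given in the sources used here. RMA values of dim genes are compressed, so their differences are understated. The labels' protocols name a 3' amplification kit, but the probes belong to a whole-transcript array design, and the chemistry used is not known.

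The table holds 35556 probe sets. The platform annotation gave 21789 of them 1 symbol, 1621 several and 12146 none, and 21698 matched a RefSeq gene (GRCm38.p6, used for names). Each of the 19938 genes took its probe set with the highest mean, and 999 had a choice. A model with condition and region terms was fitted to all 21 arrays (7 conditions, 3 regions, 12 residual degrees of freedom) with limma 3.58.1 in R 4.3.3 and Benjamini-Hochberg adjustment over all genes; it was tested on simulated data. All 6 arrays of the comparison share the spread estimated from the 21. The number of arrays limits the precision; the median standard error of a difference was 0.11. Upstream windows came from RefSeq and were searched for E-box letters alone.

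The comparison and the gene lists were chosen with earlier results of these data known. Genes named are the 12 largest called rises and falls of 1 sign in all regions (all if fewer, predicted genes passed over), from each list up to 4 called members or the 2 with the smallest p, and the core clock genes; some others were named for comparison within a family or, where said, after their values were seen. Alternatives were no region term, fewer arrays, other scaling, probe set and dim-gene rules, another prior, and leaving out each array. Pooling day 0 with sham as the control was added after seeing the data.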

Additional observations from a re-analysis of the deposited data

How the results depend on the processing

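Against 10 genes higher and 3 lower, the counts were 0 and 0 with no region term, 6 and 1 with only the 6 arrays compared, 41 and 19 without the day 7 cardiac lobe and the day 56 pneumonectomy whole lung, and 33 and 26 with day 0 and sham pooled as the control; fitting the lobes alone gave 7 and 6. Of the 13 genes, 3 were among the calls of the lobes alone and 2 among those of the 6-array fit. Leaving out 1 array of the 6 gave 0 to 5 higher and 0 to 14 lower. Against 0 core clock genes called, the lobes alone and the fit without the 2 other arrays gave 1 each and the pooled control 2; Arntl, -0.23 against sham, was 0.82 above the pooled control (adjusted p = 0.0065). With no region term and without the 2 arrays, the calls were 90 and 811 for day 14 minus day 0, 35 and 241 for day 14 minus day 56 pneumonectomy, 15 and 89 for day 7 minus day 14, 7 and 141 for day 28 minus day 14, and 32 and 342 for sham minus day 0. The cause of these changes was not tested. No paired analysis by replicate number was possible because the labels give none; the region term pairs the arrays by region. With 3 arrays a group, a difference that missed the threshold is not shown to be absent.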

Other observations

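The median of the neutrophil genes was above sham in the lobes and below it in the whole lung. Over 13 genes the median difference was 0.58 in the medial lobe, 0.91 in the cardiac lobe and -1.08 in the whole lung, with 0 called by limma and 2 at an unadjusted p under 0.05. In the fit of the lobes alone 3 of the 13 were called higher, with a median of 0.81, where 7 of all 19938 genes were called higher. Ngp, a neutrophil granule protein, read 6.78, 6.69 and 5.61 at day 14 (medial lobe, cardiac lobe, whole lung) and 4.86, 4.88 and 6.15 in sham, so the sign turned in the whole lung. Acute-phase genes had 14 of 17 above 0 but a median of 0.06, and Saa3, a serum amyloid protein, read 7.90, 9.60 and 9.28 against 7.09, 6.54 and 6.86 (2.09 ± 0.56, adjusted p = 0.34). Its groups did not overlap, and the medial lobe had the smallest difference.

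Some heat shock genes differed from day 0 in each group. Of 19, 5 were called higher and 1 lower than day 0 at day 14, where 1.2% of all genes were called in either direction, and 5 higher and 1 lower in sham, where 0.381% were. Between the groups 0 were called by limma, with a median of -0.15 and 3 lower at an unadjusted p under 0.05. Hsph1, a co-chaperone of the HSP70 family, was above day 0 by 0.96 at day 14 (adjusted p = 0.0023) and by 1.33 in sham (adjusted p = 0.00016), and the groups differed by -0.37 (adjusted p = 0.66). Genes responsive to glucocorticoids and fasting had 8 of 18 above 0 and 0 called by limma, with 1 higher and 1 lower at an unadjusted p under 0.05. Klf9, a factor of the same family as Klf15, read 9.74, 9.66 and 9.54 at day 14 against 10.15, 10.30 and 9.75 in sham (-0.42 ± 0.12, adjusted p = 0.42). Of 11 adipocyte genes 3 were above 0, with a median of -0.38, and Retn, the hormone resistin, read 7.06, 6.99 and 8.45 against 8.26, 7.43 and 9.99 (adjusted p = 0.34), highest in the whole lung of each group.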
